A study of Homo sapiens with 8 samples.

Results

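The nuclear genes of the 5 complexes of oxidative phosphorylation were followed in MCF10A cells after DNA damage. They were taken as every protein-coding gene whose current or former symbol starts with NDUFA, NDUFB, NDUFC, NDUFS, NDUFV, UQCR, COX4, COX5, COX6, COX7, COX8 or ATP5, with SDHA, SDHB, SDHC, SDHD and CYC1 added and NDUFAF genes and pseudogenes left out. The rule gave 94 genes, of which 91 had a probe among the 20296 genes named on the arrays. UQCRHL, NDUFC2-KCTD14 and ATP5MF-PTCD1 had none. Of the 91, 88 encode subunits of complexes I to V, their close paralogs or the inhibitor of complex V, and EMC8, DMAC2 and DMAC2L match only by a former name. Among the 88, 86 were well above background on at least 1 array and 83 on all 8, and these 86 are called subunit genes here.

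MCF10A is a non-tumorigenic human mammary epithelial line. The samples were p53+/+ cells and p53-/- cells, each taken untreated at 0 h and at 12, 24 and 48 h after a 2 h exposure to doxorubicin (adriamycin, ADR), for which the labels give 0.5 µg/ml. The methods text of the study gives a higher dose for these arrays, so the dose is not settled. ADR intercalates into DNA and causes breaks through topoisomerase II. With 1 array for each of the 8 conditions, a single time point has no replicate error. How p53 was removed, and from how many clones the p53-/- cells came, is not given in the labels.

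Oxidative phosphorylation couples the oxidation of NADH and succinate to ATP synthesis at the inner mitochondrial membrane. Complex I takes electrons from NADH and complex II takes them from succinate, complex III hands them to cytochrome c, complex IV passes them to oxygen, and complex V uses the proton gradient to make ATP. Mitochondrial DNA encodes a small set of core subunits of complexes I, III, IV and V. The remaining subunits, and complex II in full, come from nuclear genes, many of which are known targets of NRF1, the ETS factor GABPA and YY1.

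Levels below are the log2 processed signal relative to the 75th percentile of the array, changes are log2 differences from the 0 h array of the same genotype, and levels are not set against each other between genes. Values follow the order 12, 24 and 48 h, with 0 h in front for the p53-/- series. CDKN1A, the p21 gene and a p53 target, read 2.54, 2.63 and 2.70 after treatment of p53+/+ cells, against -0.96, -0.64 and -0.48 without p53. At 0 h CDKN1A read -1.14 on the array labelled p53+/+ and -2.97 on the p53-/- array, and MDM2, another p53 target, read -1.66 and -1.33. These levels do not settle the label of the p53+/+ 0 h array, which is therefore named as labelled. Every change from 0 h in p53+/+ cells rests on that array, and the comparison between treated arrays does not use it. All 8 arrays lay on 1 slide with the genotypes in different columns, so genotype and column cannot be told apart, and the p53+/+ 48 h array had none of 10 spike-in probes well above background where each other array had 6.

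The basal epithelial markers were also checked. KRT5, KRT14, KRT17, KRT6A, ITGB4 and CDH1 passed the background criterion on all 8 arrays, and TP63 on 3. Of these 7 markers 5 (71.4%, against 11.6% of all genes) were called higher in treated p53+/+ cells (limma adjusted p under 0.05). Their estimates ran from 1.51 (KRT14) to 3.98 (CDH1, E-cadherin) on the log2 scale. KRT6A had an estimate of 0.26 and TP63 one of -0.28, both with treated values that overlapped between the genotypes. Of 5 markers of other cell types PTPRC and DES passed it on every array, CD3E and ALB on 1 each, and PECAM1 on all p53-/- arrays and the array labelled p53+/+ 0 h only, at least 6.58-fold lower on treated p53+/+ arrays. The part of these marker differences in the results below was not tested, and in such bulk RNA fewer cells of a kind and less RNA per cell cannot be told apart.

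Promoter windows were read from RefSeq (GRCh38.p14, 250 bases before to 50 after the start) to show what the genes share apart from their names. Windows were listed for 71 of the 86 subunit genes, with SDHC and CYC1 not among them. GCGCNTGCG, the NRF1 core, stood on either strand in 25 of them (35.2%), against 15.1% of the 11913 coding genes with a window that were well above background on at least 1 array, as all 71 were, and 12.5% of all 15843 coding genes. CCGGAAGT, bound by GABPA and other ETS factors, stood in 12 (16.9%) against 8.63 and 6.97%, and ATGGCGGC, the YY1 core, in 12 (16.9%) against 6.39 and 5.23%. At least 1 of these motifs stood in 40 of 71 (56.3%), against 26.4 and 21.8%. Base composition was not matched between the sets.

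**Figure D1:**
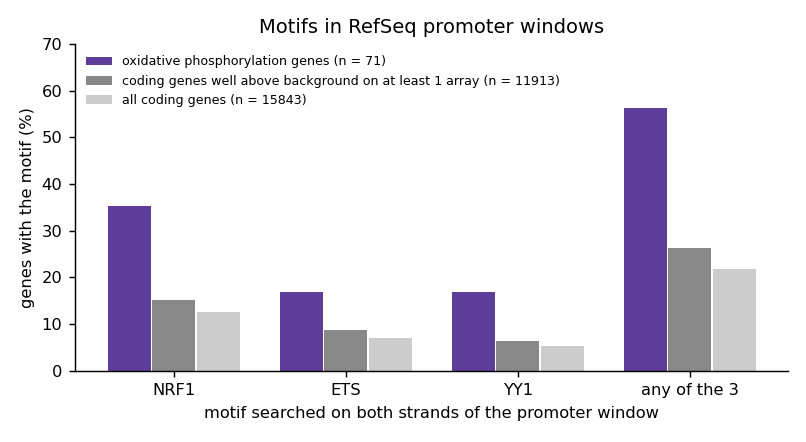
Share of genes (vertical axis, %) whose RefSeq promoter window holds the NRF1, ETS or YY1 letters on either strand, for 71 oxidative phosphorylation genes, 11913 coding genes well above background on at least 1 array and all 15843 coding genes. The oxidative phosphorylation genes stand at 35.2, 16.9, 16.9 and 56.3% (any motif), the genes above background at 15.1, 8.63, 6.39 and 26.4%, and all coding genes at 12.5, 6.97, 5.23 and 21.8%.

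The windows of SDHA, SDHB and SDHD of complex II are shown because this complex divided between the genotypes, and that of ATP5IF1 because it had the largest change from 0 h among the genes well above background on all arrays. Capitals mark the motifs. SDHA lies at chr5:218070-218369 on the plus strand, SDHB at chr1:17053983-17054282 on the minus strand, SDHD at chr11:112086623-112086922 on the plus strand and ATP5IF1 at chr1:28235874-28236173 on the plus strand, and each is written 5′ to 3′ along its gene.
SDHA: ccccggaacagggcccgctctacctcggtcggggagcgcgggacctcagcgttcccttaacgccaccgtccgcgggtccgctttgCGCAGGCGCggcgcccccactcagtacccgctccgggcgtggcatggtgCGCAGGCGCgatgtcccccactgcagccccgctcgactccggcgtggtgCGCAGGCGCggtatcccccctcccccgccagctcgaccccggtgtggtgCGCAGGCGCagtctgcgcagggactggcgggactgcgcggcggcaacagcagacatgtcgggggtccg
SDHB: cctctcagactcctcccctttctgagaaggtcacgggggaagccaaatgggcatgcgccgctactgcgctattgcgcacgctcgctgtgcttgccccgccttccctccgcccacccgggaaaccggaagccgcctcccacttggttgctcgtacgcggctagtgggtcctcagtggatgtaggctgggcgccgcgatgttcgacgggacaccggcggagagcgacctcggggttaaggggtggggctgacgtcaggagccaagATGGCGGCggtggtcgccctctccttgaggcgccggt
SDHD: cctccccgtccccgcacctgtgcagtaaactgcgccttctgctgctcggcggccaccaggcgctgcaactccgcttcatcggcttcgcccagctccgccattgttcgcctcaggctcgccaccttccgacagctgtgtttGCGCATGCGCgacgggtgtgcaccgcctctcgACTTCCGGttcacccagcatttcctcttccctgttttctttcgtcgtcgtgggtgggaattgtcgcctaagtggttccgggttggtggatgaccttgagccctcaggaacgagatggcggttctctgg
ATP5IF1: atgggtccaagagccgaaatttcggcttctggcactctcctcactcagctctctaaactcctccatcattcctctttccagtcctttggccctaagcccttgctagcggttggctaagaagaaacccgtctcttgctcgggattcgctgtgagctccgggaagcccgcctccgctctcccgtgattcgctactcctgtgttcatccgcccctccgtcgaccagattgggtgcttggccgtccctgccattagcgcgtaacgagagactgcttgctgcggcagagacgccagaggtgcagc
The SDHA window held the NRF1 letters 4 times, the first from base 86, and neither of the other motifs. SDHD held them from base 141, where the letters read the same on both strands and so match 2 times with overlap, and held the ETS letters from base 173. SDHB held the YY1 letters from base 264, and ATP5IF1 held none of the motifs. Split by motif, the genes with NRF1 letters had a median difference between treated p53+/+ and p53-/- cells of 0.07 (n = 25) and those without 0.19 (n = 46). With and without the ETS letters the medians were 0.20 (n = 12) and 0.14 (n = 59), and with and without the YY1 letters 0.06 (n = 12) and 0.17 (n = 59), all descriptions with no test.

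After ADR most subunit genes stayed within 2-fold of their 0 h level in both genotypes. In p53+/+ cells 7 of 86 (8.14%) were at least 2-fold above 0 h at 1 or more time points, where the share over 15811 genes was 23.6%, and 2 (2.33%) at least 2-fold below, against 19.5%. In p53-/- cells 2 (2.33%) were above, against 17.3%, and 1 (1.16%) below, against 11.6%. The 7 were ATP5IF1, NDUFA7, NDUFB1, SDHA, SDHC, COX7B2 and COX8C, and the genes below were ATP5F1C and ATP5MC2. In p53-/- cells they were COX7B2 and COX8C above and ATP5F1D below. COX7B2 and COX8C were not well above background at 0 h, and COX8C on no p53+/+ array. The changes of a genotype at the 3 times share 1 array at 0 h. At all 3 time points 0 subunit genes were past 2-fold, where the shares of all genes were 9.53% above and 6.39% below for p53+/+, and 3.21% above with 2.04% below for p53-/-. The 0 h arrays themselves differed by 2-fold in 0 subunit genes, against 4.25% of all genes higher and 5.38% lower on the array labelled p53+/+. The technical SD of a change, taken from probes printed in 10 spots, was 0.09 for a bright probe with 1 spot. Of the 15811 genes only 11828 were well above background on all arrays, as 83 of the 86 were, so the shares over all genes include dimmer probes. At 48 h in p53-/- cells 907 of the 11828 were at least 2-fold above 0 h and 847 below. Among the 15811 there were 2355 and 1187. In p53+/+ cells these counts were 1704 and 1197, and 2999 and 1942.

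**Figure D2:**
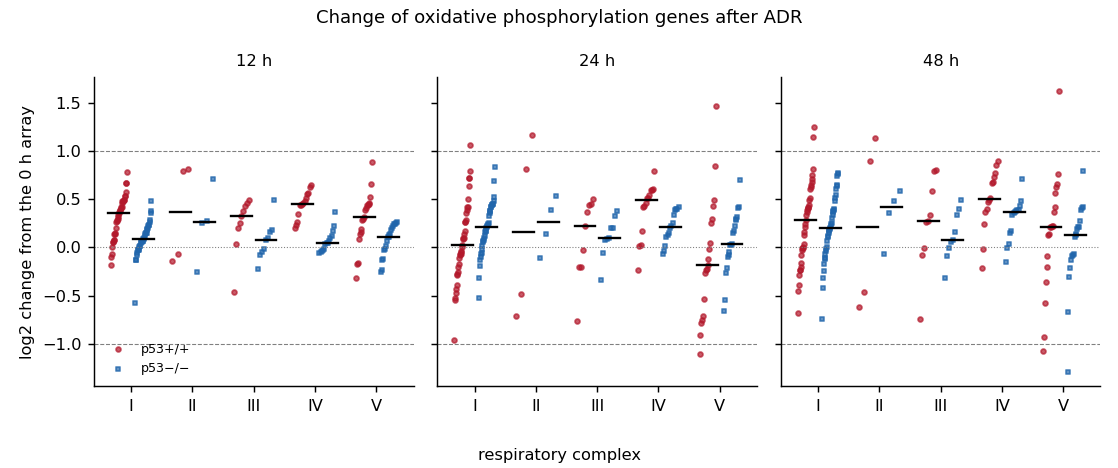
Log2 change from the 0 h array of the same genotype (vertical axis) at 12, 24 and 48 h for the 83 subunit genes well above background on all 8 arrays, by complex (horizontal axis). Each point is 1 gene on 1 array, short bars are medians and dashed lines mark 2-fold, and most points lie between the dashed lines.

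Small changes ran mostly upward. The median change of the 86 genes was 0.38, 0.09 and 0.35 for p53+/+ cells (12, 24 and 48 h) and 0.08, 0.20 and 0.20 without p53, where the medians of all genes were 0.06, −0.04 and 0.16, and −0.02, 0.01 and 0.07. With no scaling between arrays the p53+/+ medians at 24 and 48 h were −0.22 and −0.27, and with median scaling that at 24 h was −0.03. The median subunit gene lay above the median of all genes at every time in both genotypes, by 0.10 to 0.32, and also under quantile normalization (0.04 to 0.22) and normexp (0.01 to 0.26). Median scaling and no scaling move all genes of an array alike, so they cannot change this gap. In p53+/+ cells 47 of 86 (54.7%) were above 0 h at all 3 times, against 38.8% of all genes, and 8 (9.30%) below, against 32.5%. In p53-/- cells 46 (53.5%) were above, against 33.1%, and 11 (12.8%) below, against 31.5%.

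Complex IV had the highest medians in p53+/+ cells, 0.44, 0.51 and 0.66, against 0.05, 0.26 and 0.37 in p53-/- cells. Complex I had 0.36, 0.03 and 0.28 against 0.09, 0.22 and 0.20, and complex V 0.31, −0.18 and 0.22 against 0.11, 0.03 and 0.12. The median of complex V was thus below 0 h in p53+/+ cells at 24 h only.

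Between the genotypes after treatment, limma called 2 of 86 subunit genes higher in p53+/+ cells (2.33%, against 11.6% of all genes) and 1 lower (1.16%, against 9.34%). SDHA and NDUFB8 were the genes called higher and CYC1 the gene called lower. At an unadjusted p of 0.05 there were 14 higher (16.3%, against 20.2%) and 4 lower (4.65%, against 17.0%). The fit used the 6 treated arrays with time points standing in for replicates, so its p-values set the genotype difference against movement over time and not against the spread between cultures. The 3 treated p53+/+ values lay wholly above the 3 p53-/- values in 31 genes (36.0%, against 24.6%) and wholly below in 5 (5.81%, against 19.9%). Estimates of treated p53+/+ minus treated p53-/- ranged from −0.68 to 1.02 with a median of 0.17, where all genes had 0.05, and 64 (74.4%) were above 0, against 52.8%. The subunit median less that of all genes was 0.12 here, 0.01 under quantile normalization and −0.06 under normexp, so the direction of the whole group turned with the processing. Over the 11828 genes well above background on all arrays the median estimate was 0.07, with 12.2% called higher and 8.47% lower. At 48 h the median difference between treated genotypes was 0.17 for those genes and 0.17 for the subunit genes. At matched times 3 genes (3.49%) were at least 2-fold higher in p53+/+ cells once or more, against 23.4%, and 1 (1.16%) at least 2-fold lower, against 21.9%, namely SDHA, COX6B2 and COX4I2, and COX8C, of which COX4I2 and COX8C were not well above background on any p53+/+ array, while 0 were so at all 3 times, against 6.75% and 5.92%. By sign alone 36 (41.9%) were higher at all 3 times, against 33.6%, and 8 (9.30%) lower, against 28.2%.

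The interaction of genotype and treatment over all 8 arrays sets the change from 0 h of one genotype against that of the other. Limma called 0 of the 86 genes in it, and at an unadjusted p of 0.05 there was 1 (1.16%, against 19.2% of all genes). The adjusted p there was 0.20 for SDHA, 0.349 for NDUFB8 and 0.339 for CYC1. In 7 genes (8.14%, against 22.4%) all treated arrays lay above 0 h in one genotype and below it in the other.

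**Figure D3:**
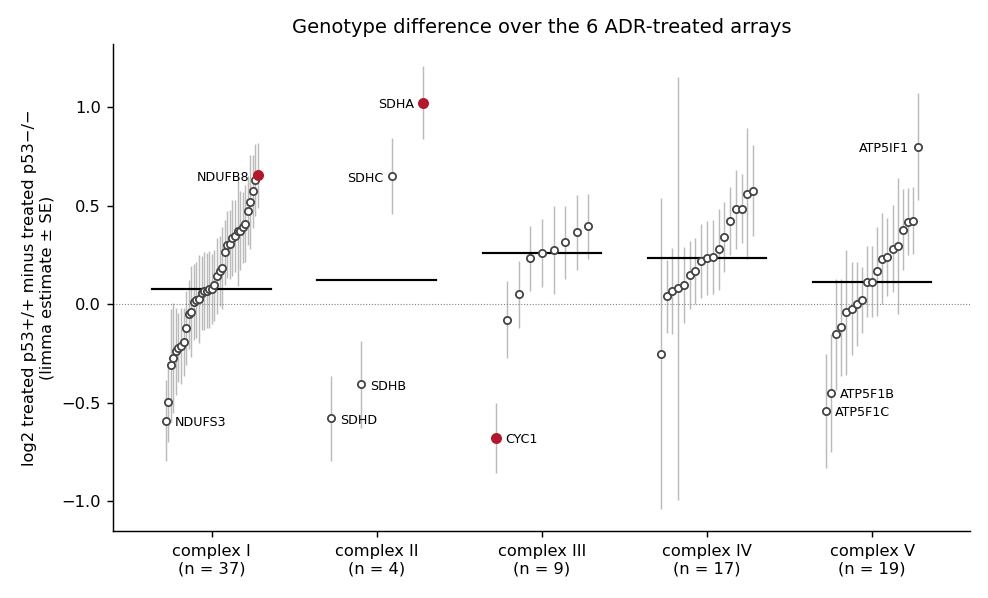
Limma estimate of the log2 level in treated p53+/+ minus treated p53-/- cells (vertical axis) for each of 86 subunit genes, sorted within its complex (horizontal axis). Bars are SE, red points have an adjusted p under 0.05 (SDHA, NDUFB8 and CYC1) and lines are medians. In complex II SDHA and SDHC lie above 0 and SDHB and SDHD below.

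The 4 subunits of complex II divided into pairs. SDHA, the flavoprotein that oxidises succinate, read 4.78, 5.14 and 4.87 in treated p53+/+ cells after 3.97 on the 0 h array so labelled, while the p53-/- series was 4.05, 3.80, 3.94 and 3.98. All treated p53+/+ arrays were above every p53-/- array. The estimate was 1.02 ± 0.19 (SE, 3 against 3 arrays), or 2.03-fold, with a limma adjusted p of 0.0143, and the 4 SDHA probes gave 1.02, 0.75, 0.64 and 0.74. The call was lost without the p53-/- 24 h array (adjusted p = 0.0646) and with no scaling, where the estimate was 0.43 (adjusted p = 0.163).

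SDHC, a membrane anchor that carries heme, read 4.30, 4.31 and 4.64 in treated p53+/+ cells after 3.50 on the 0 h array so labelled, while the p53-/- series was 3.39, 3.64, 3.92 and 3.74. Its treated values did not overlap between the genotypes, with an estimate of 0.65 ± 0.19 and an adjusted p of 0.0623. The 3 SDHC probes gave 0.65, 0.24 and 0.94.

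SDHD, the other anchor, lay the opposite way. It read 1.96, 1.38 and 1.64 in treated p53+/+ cells after 2.10 on the 0 h array so labelled, while the p53-/- series was 1.68, 2.39, 2.07 and 2.26. The treated p53+/+ values were below all treated p53-/- values (-0.58 ± 0.22, adjusted p = 0.115), and its 3 probes gave -0.58, -0.69 and -0.87. The changes from 0 h were -0.14, -0.72 and -0.46 in p53+/+ and 0.71, 0.39 and 0.59 in p53-/- cells.

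SDHB, the iron-sulfur subunit that passes electrons from SDHA to the anchors, read 3.51, 3.09 and 2.96 in treated p53+/+ cells after 3.58 on the 0 h array so labelled, while the p53-/- series was 3.30, 3.57, 3.43 and 3.78. Its 12 h p53+/+ value lay within the treated p53-/- range and the later values below it (-0.41 ± 0.22, adjusted p = 0.243). By their brightest probes SDHA and SDHC were therefore high, and SDHB and SDHD low, on the p53+/+ arrays at 24 and 48 h. Only SDHA passed the test. At 48 h the other probes did not all follow. There the 4 SDHA probes differed between genotypes by 0.89, 0.50, 0.09 and 0.61, and the 3 SDHC probes by 0.90, -0.15 and 1.23.

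**Figure D4:**
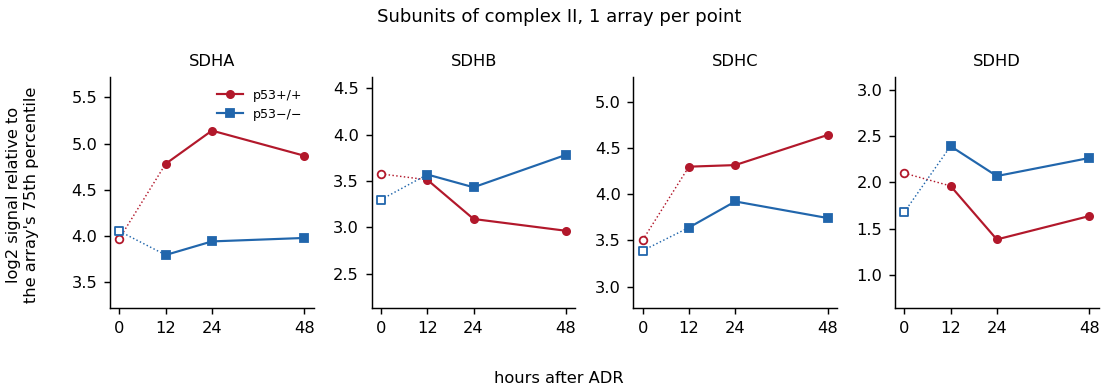
Log2 signal relative to the 75th percentile of the array (vertical axis) against hours after ADR (horizontal axis) for SDHA, SDHB, SDHC and SDHD, 1 array per point, by genotype. Open symbols with dotted lines are the 0 h arrays. At 48 h SDHA read 4.87 in p53+/+ against 3.98 in p53-/- cells, and SDHB 2.96 against 3.78.

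Complex III held the subunit gene called lower. CYC1, cytochrome c1, which hands electrons to cytochrome c, read 4.40, 4.09 and 4.12 in treated p53+/+ cells after 4.86 on the 0 h array so labelled, while the p53-/- series was 4.78, 4.94, 4.85 and 4.86. The treated p53+/+ arrays were all below every p53-/- array. The estimate was -0.68 ± 0.18, or 0.624-fold, with an adjusted p of 0.0436. The call was lost with time point as a replicate block (0.0693) and when any 1 treated array other than p53+/+ 12 h was left out (0.0821 to 0.139).

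The other core subunits of complex III passed no test. UQCRFS1, the Rieske iron-sulfur protein, read 5.10, 4.70 and 4.82 in treated p53+/+ and 5.10, 4.81 and 4.94 in treated p53-/- cells, and UQCRC1, a core protein, 4.34, 4.11 and 4.30 against 4.27, 4.15 and 4.18. Their genotypes overlapped. UQCRC2, the partner of UQCRC1, read 3.42, 3.01 and 3.30 against 2.99, 2.84 and 2.81 without overlap (0.37 ± 0.19, adjusted p = 0.228). The small subunits UQCR11 and UQCRQ also had non-overlapping treated values, with estimates of 0.39 ± 0.16 and 0.31 ± 0.19 and adjusted p of 0.145 and 0.281. In all 5 of 9 genes of this complex (55.6%, against 24.6% of all genes) lay wholly higher and 1 (11.1%, against 19.9%) wholly lower in treated p53+/+ cells. For UQCRB a second probe gave -0.82 against 0.23 for the brighter one. That second probe was dim, with a mean level of -4.26 against 4.67, and well above background on 5 arrays only.

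In complex I 26 of 37 genes (70.3%, against 52.8% of all genes) had an estimate above 0. In treated p53+/+ cells 13 (35.1%, against 24.6%) were wholly higher and 3 (8.11%, against 19.9%) wholly lower. At an unadjusted limma p of 0.05 there were 4 higher (10.8%, against 20.2%) and 2 lower (5.41%, against 17.0%). NDUFB8, an accessory subunit of the membrane arm, read 5.50, 5.44 and 5.33 in treated p53+/+ cells after 4.72 on the 0 h array so labelled, while the p53-/- series was 4.77, 4.79, 4.83 and 4.70. By this brightest probe the treated p53+/+ arrays were 1.72, 1.64 and 1.53 times the 0 h array at 12, 24 and 48 h, and the p53-/- arrays stayed close to theirs. The estimate was 0.65 ± 0.17 with an adjusted p of 0.0406. A second NDUFB8 probe gave 0.41 (adjusted p = 0.240), and its log2 changes from 0 h in p53+/+ cells were 0.68, 0.59 and 0.06. The call was lost under quantile normalization (0.121), median scaling (0.110), no scaling (0.838), the mean of both probes (0.0946), the replicate block (0.0712) and without any 1 treated array (0.0519 to 0.129).

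The accessory subunits NDUFS5 and NDUFA13 stood next to it. NDUFS5 read 7.10, 7.14 and 7.36 in treated p53+/+ cells after 6.72 on the 0 h array so labelled, while the p53-/- series was 6.74, 6.61, 6.68 and 6.42 (0.63 ± 0.18, adjusted p = 0.0577). NDUFA13, also known as GRIM-19, read 5.38, 5.61 and 5.71 in treated p53+/+ cells after 4.89 on the 0 h array so labelled, while the p53-/- series was 4.92, 4.92, 5.14 and 4.92 (0.57 ± 0.19, adjusted p = 0.0797). For both genes all treated p53+/+ arrays were above all treated p53-/- arrays.

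At the lower end were NDUFS3, a core subunit of the arm that leads to ubiquinone, and the accessory subunit NDUFA6. NDUFS3 read 3.90, 3.54 and 3.43 in treated p53+/+ cells after 3.82 on the 0 h array so labelled, while the p53-/- series was 3.66, 4.14, 4.11 and 4.40 (-0.59 ± 0.21, adjusted p = 0.0958). NDUFA6 read 3.12, 2.76 and 2.90 in treated p53+/+ cells after 3.19 on the 0 h array so labelled, while the p53-/- series was 3.11, 3.18, 3.49 and 3.6 (-0.50 ± 0.20, adjusted p = 0.141). Both had treated p53+/+ values wholly below the p53-/- values. NDUFB10, of the membrane arm, read 5.15, 4.14 and 4.86 in treated p53+/+ and 5.15, 4.99 and 4.95 in treated p53-/- cells (-0.31 ± 0.29, adjusted p = 0.495), and its lowest value was the p53+/+ array at 24 h.

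The subunits at the NADH end differed little. NDUFV1, which binds FMN and oxidises NADH, read 5.27, 5.14 and 5.12 in treated p53+/+ cells after 5.13 on the 0 h array so labelled, while the p53-/- series was 5.03, 5.21, 5.47 and 5.42 (-0.19 ± 0.17, adjusted p = 0.490). NDUFS1, an iron-sulfur subunit, read 4.09, 3.77 and 4.04 in treated p53+/+ cells after 4.03 on the 0 h array so labelled, while the p53-/- series was 3.98, 3.91, 3.88 and 3.88 (0.08 ± 0.18, adjusted p = 0.805). Over the 7 nuclear core subunits the median estimate was 0.06, with 0 wholly higher and 1 (14.3%) wholly lower, and over the 30 accessory subunits it was 0.17, with 13 (43.3%) and 2 (6.67%), where all genes had 24.6 and 19.9%. The difference between core and accessory subunits was not tested.

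In complex IV 16 of 17 genes had an estimate above 0 (94.1%, against 52.8% of all genes), 8 lay wholly higher in treated p53+/+ cells (47.1%, against 24.6%) and 0 wholly lower (against 19.9%). Limma called 0 of them at an adjusted p of 0.05, and at an unadjusted p of 0.05 there were 4 higher (23.5%, against 20.2%) and 0 lower (against 17.0%). The 17 include COX4I2 and COX8C, which passed the background filter through p53-/- arrays only, and COX7B2, which passed it at 48 h only. COX8C was the gene below 0 (-0.25). Over the settings tried the estimate ran from -0.11 to 0.61 for COX7C and from -0.12 to 0.57 for COX7A2. For COX5B it ran from -0.36 to 0.30 and for COX5A from -0.45 to 0.23. The nuclear subunits of this complex surround a catalytic core encoded by mitochondrial DNA. COX7C, a small membrane subunit, read 6.43, 6.30 and 6.56 in treated p53+/+ cells after 5.79 on the 0 h array so labelled, while the p53-/- series was 5.91, 5.86, 6.04 and 5.95 (0.49 ± 0.17, adjusted p = 0.103). COX7A2, the widely expressed form of subunit VIIa, read 6.61, 6.78 and 6.89 in treated p53+/+ cells after 5.99 on the 0 h array so labelled, while the p53-/- series was 6.03, 6.01, 6.36 and 6.46 (0.48 ± 0.20, adjusted p = 0.145). Treated values of these genes did not overlap between the genotypes.

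COX4I1, the widely expressed form of subunit IV, read 5.76, 5.58 and 5.34 in treated p53+/+ cells after 5.55 on the 0 h array so labelled, while the p53-/- series was 5.54, 5.48, 5.55 and 5.53 (0.04 ± 0.19, adjusted p = 0.905), and its genotypes overlapped. COX5B, which binds zinc, read 5.62, 5.56 and 5.81 in treated p53+/+ cells after 5.13 on the 0 h array so labelled, while the p53-/- series was 5.15, 5.22, 5.54 and 5.52 (0.24 ± 0.19, adjusted p = 0.425). COX5A had an estimate of 0.15 ± 0.17 (adjusted p = 0.601), COX8A 0.10 ± 0.19 (0.772) and the supercomplex factor COX7A2L 0.07 ± 0.22 (0.865), with its second probe at -0.19.

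The paralogs of restricted expression were mostly dim. COX6B2, the testis form of subunit VIb, was well above background on all arrays and read 3.06, 2.77 and 3.46 in treated p53+/+ cells after 2.60 on the 0 h array so labelled, while the p53-/- series was 2.55, 2.67, 2.49 and 2.40 (0.57 ± 0.23, adjusted p = 0.135). COX6A2, the muscle form of subunit VIa, was also well above background on all arrays, with -3.64, -3.62 and -3.57 in treated p53+/+ and -3.78, -3.89 and -3.66 in treated p53-/- cells (0.17 ± 0.17, adjusted p = 0.531). COX7A1 and COXFA4L2 (formerly NDUFA4L2) were not well above background on any array, and COX4I2 was so only on the p53-/- 24 h array. COX7B2 was well above background on both 48 h arrays and no other, at least 3.26-fold above 0 h in p53+/+ and at least 3.17-fold in p53-/- cells. COX8C was so on the p53-/- 24 and 48 h arrays, at least 1.21- and 1.71-fold above 0 h. These bounds set the bright array against the lowest signal well above background on the dim one or the signal of the dim probe, whichever was higher.

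In complex V limma called 0 of 19 genes at an adjusted p of 0.05, with 3 higher (15.8%, against 20.2% of all genes) and 0 lower (against 17.0%) at an unadjusted p of 0.05. Treated p53+/+ values lay wholly higher in 3 genes (15.8%, against 24.6%) and wholly lower in 0 (against 19.9%). The estimate was above 0 in 13 (68.4%, against 52.8%). ATP5IF1, which blocks ATP hydrolysis by the enzyme when the membrane potential falls, read 6.70, 7.27 and 7.43 in treated p53+/+ cells after 5.81 on the 0 h array so labelled, while the p53-/- series was 5.76, 5.99, 6.46 and 6.55. It was 1.85, 2.76 and 3.07 times its 0 h level in p53+/+ cells, and its changes in p53-/- cells were 0.23, 0.70 and 0.79. The estimate between treated genotypes was 0.80 ± 0.27, or 1.74-fold, with an adjusted p of 0.0900, and a second probe gave 0.87. With time point as a replicate block the adjusted p was 0.0481.

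The alpha, beta and gamma subunits form the core of the head that makes ATP. ATP5F1B, the catalytic beta subunit, read 5.24, 4.37 and 4.23 in treated p53+/+ cells after 5.16 on the 0 h array so labelled, while the p53-/- series was 4.99, 5.19, 4.89 and 5.10 (-0.45 ± 0.30, adjusted p = 0.339). ATP5F1C, the gamma subunit that turns inside the head, read 2.40, 1.67 and 1.5 in treated p53+/+ cells after 2.58 on the 0 h array so labelled, while the p53-/- series was 2.43, 2.68, 2.22 and 2.30 (-0.54 ± 0.29, adjusted p = 0.238). The 24 and 48 h p53+/+ arrays were the lowest of all 8 for both genes. ATP5F1A, the alpha subunit, read 5.69, 5.42 and 4.97 in treated p53+/+ cells after 5.54 on the 0 h array so labelled, while the p53-/- series was 5.45, 5.51, 5.40 and 5.23 (-0.02 ± 0.24, adjusted p = 0.958). The 5 genes of the head and central stalk had median changes of 0.14, −0.71 and −0.57 in p53+/+ cells.

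Of the small stalk subunits, ATP5F1E (epsilon) read 7.33, 7.38 and 7.52 in treated p53+/+ cells after 6.89 on the 0 h array so labelled, while the p53-/- series was 6.88, 6.90, 7.05 and 7.01 (0.42 ± 0.17, adjusted p = 0.132). ATP5F1D (delta), named after its values were seen because it was the 1 gene past 2-fold below 0 h in p53-/- cells, read 3.67, 2.80 and 3.15 in treated p53+/+ cells after 3.51 on the 0 h array so labelled, while the p53-/- series was 3.65, 3.39, 2.99 and 2.36. ATP5MG, a membrane subunit, read 7.29, 7.48 and 7.39 in treated p53+/+ cells after 6.63 on the 0 h array so labelled, while the p53-/- series was 6.61, 6.87, 7.03 and 7.0 (0.42 ± 0.17, adjusted p = 0.135), without overlap of the treated genotypes. ATP5MJ read 2.44, 2.01 and 2.97 in treated p53+/+ cells after 2.76 on the 0 h array so labelled, while the p53-/- series was 2.52, 2.65, 2.45 and 2.80 (-0.15 ± 0.28, adjusted p = 0.746).

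**Figure D5:**
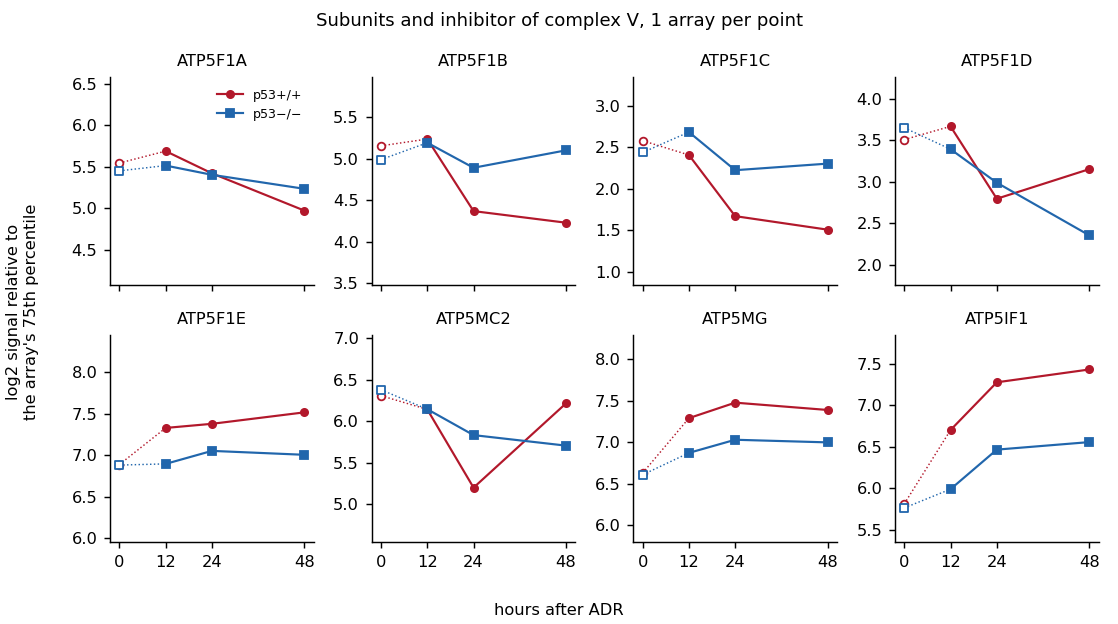
Log2 signal relative to the 75th percentile of the array (vertical axis) against hours after ADR (horizontal axis) for 8 genes of complex V, 1 array per point, by genotype. Open symbols with dotted lines are the 0 h arrays. ATP5IF1 reaches 7.43 in p53+/+ cells at 48 h, and ATP5F1C reads 1.5.

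A dip on the p53+/+ array at 24 h ran through several complexes. It lay below both the 12 and the 48 h array in 48 of 86 subunit genes (55.8%), against 37.6% of all genes, and in p53-/- cells in 20 (23.3%), against 26.2%. In the membrane and peripheral stalk subunits of complex V it did so in 10 of 12 genes in p53+/+ and 3 of 12 in p53-/- cells. ATP5MC2, a c-ring gene singled out after its values were seen, read 6.14, 5.20 and 6.22 in treated p53+/+ cells after 6.31 on the 0 h array so labelled, while the p53-/- series was 6.38, 6.14, 5.83 and 5.70. This pattern was looked for after the data were seen and rests on 1 array. With no scaling the share of subunit genes in p53+/+ cells was 24.4%, against 24.5% of all genes, and under the other scalings 43.0 to 54.7%, against 32.2 to 39.7%.

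The genes that match the rule by a former name were not called. EMC8, a subunit of the ER membrane complex once named COX4NB, read 2.79, 2.71 and 3.18 in treated p53+/+ cells after 3.50 on the 0 h array so labelled, while the p53-/- series was 2.94, 3.32, 3.1 and 3.33 (-0.36 ± 0.20, adjusted p = 0.270). DMAC2 and DMAC2L, formerly ATP5SL and ATP5S, had estimates of -0.02 ± 0.20 and 0.43 ± 0.22.

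Assembly factors were taken from a list of 46 genes, 43 of them measured, with 2 called higher and 2 lower in treated p53+/+ cells (4.65% each, against 11.6% and 9.34%). The 4 are named because they passed the test. SDHAF4, which assists SDHA before it joins SDHB, read 0.40, 0.27 and 0.66 in treated p53+/+ cells after -0.66 on the 0 h array so labelled, while the p53-/- series was -0.51, -0.58, -0.57 and -1.17 (1.22 ± 0.24, adjusted p = 0.0181). NDUFAF8, which works with NDUFAF5 on complex I, read 5.30, 5.32 and 5.60 in treated p53+/+ cells after 4.53 on the 0 h array so labelled, while the p53-/- series was 4.36, 4.51, 4.34 and 4.15 (1.07 ± 0.19, adjusted p = 0.0143). Both calls were lost without the p53-/- 24 h array (0.0559 and 0.0659) with no scaling (0.0606 and 0.0676) and in the interaction over 8 arrays (0.214 and 0.303).

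FOXRED1, a complex I assembly factor, read -1.62, -1.84 and -2.71 in treated p53+/+ cells after -1.34 on the 0 h array so labelled, while the p53-/- series was -1.33, -1.03, -0.88 and -0.78 (-1.16 ± 0.31, adjusted p = 0.0459). LYRM7, which holds the Rieske protein before it enters complex III, read -2.77, -3.49 and -3.23 in treated p53+/+ cells after -2.52 on the 0 h array so labelled, while the p53-/- series was -2.17, -2.52, -2.10 and -2.01 (-0.96 ± 0.26, adjusted p = 0.0478). Both were lower on all treated p53+/+ arrays, and both calls were lost with the replicate block (0.0741 and 0.0925) and without the p53+/+ 24 h array (0.0874 and 0.123) or any 1 p53-/- array, that of LYRM7 also without the p53+/+ 48 h array (0.0999). In the interaction their adjusted p was 0.403 and 0.606. SCO2, a copper chaperone of complex IV and a known p53 target, read 1.95, 1.66 and 2.75 in treated p53+/+ cells after 2.19 on the 0 h array so labelled, while the p53-/- series was 2.44, 2.00, 1.80 and 2.04 (0.17 ± 0.31, adjusted p = 0.739).

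Of 22 genes for the electron carrier, regulators and expression of mitochondrial DNA, 1 was called higher (4.55%, against 11.6% of all genes). ESRRA, a nuclear receptor that drives many of these genes, read 3.4, 3.96 and 3.96 in treated p53+/+ cells after 3.21 on the 0 h array so labelled, while the p53-/- series was 2.79, 2.92, 2.50 and 2.59 (1.10 ± 0.24, adjusted p = 0.0237). Its call was lost with the replicate block (0.0595), with no scaling (0.117), in the interaction (0.515) and without the p53+/+ 24 h, p53+/+ 48 h, p53-/- 24 h or p53-/- 48 h array (0.0566 to 0.0993). PPARGC1A, the coactivator PGC-1 alpha, passed the background filter through the p53-/- arrays only, where it was bright, so it is not counted here as a call of the list. It was at least 1.22-fold lower on treated p53+/+ arrays (adjusted p = 0.00394), against -0.20 on the log2 scale under normexp (adjusted p = 0.321). It was already dim on the array labelled p53+/+ 0 h, at -5.74 against -3.55.

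CYCS, cytochrome c, read 4.13, 3.30 and 3.39 in treated p53+/+ and 4.17, 3.75 and 4.29 in treated p53-/- cells (-0.46 ± 0.29, adjusted p = 0.310). TFAM, which packages and transcribes mitochondrial DNA, read 3.08, 3.05 and 2.98 against 3.49, 3.62 and 3.54 (-0.51 ± 0.16, adjusted p = 0.0778), and GABPA -0.99, -0.78 and -0.94 against -0.59, -0.31 and -0.32 (-0.50 ± 0.18, adjusted p = 0.106). TFAM and GABPA lay wholly lower in treated p53+/+ cells without passing the test. Of the 22 genes 6 lay wholly lower (27.3%, against 19.9% of all genes), PPARGC1A among them. Another 5 lay wholly higher (22.7%, against 24.6%), among them GABPB1, TFB1M and MTERF1 with estimates of 0.44, 0.63 and 0.44. PPARGC1B had an estimate of -0.19 ± 0.44 and overlapped. NRF1 was well above background on 3 p53-/- arrays only and is given no fold. Of 21 genes of the TCA cycle and pyruvate dehydrogenase limma called 0, with 0 higher (against 20.2% of all genes) and 3 lower (14.3%, against 17.0%) at an unadjusted p of 0.05. PDK2 is named because it was at least 2-fold lower in treated p53+/+ cells at all 3 times (-1.09, -1.20 and -1.09). The share of all genes was 5.92%. Its estimate was -1.12 ± 0.37 (limma adjusted p = 0.0834), and it already differed by -1.01 between the 0 h arrays as labelled.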

How the data were processed

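Expression was measured in 8 samples, 1 per genotype and time point, on single-colour Agilent arrays of 62976 spots. The deposited files hold scanner output in intensity units, made by the authors with Agilent Feature Extraction 10.7.3.1 (from the file headers), and their processed signal equals the deposited value table in 503808 of 503808 values. From there each log2 processed signal was set against its array's 75th percentile (661 to 1199), replicate spots were averaged, and a gene was read from its brightest probe. Genes were named by RefSeq accession or, where that failed, by current or former symbol, which together matched 27227 of 42391 probes (64.2%). Between 49.8 and 62.9% of probes per array were well above background, and the number of arrays limits the precision. Probes printed in 10 spots gave the technical SD.

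Genotype was tested over the 6 treated arrays with limma 3.58.1 (lmFit and eBayes, R 4.3.3, 4 residual degrees of freedom), adjusting p by Benjamini-Hochberg over the 28947 probes that were well above background at least once, at 0.05. Nothing says that time points are replicate cultures. Single time points were described by a 2-fold rule with no test. On simulated data for this comparison with 200 of 28947 probes changed, the fit recovered 0% of changes of 1 log2 unit and 30% of changes of 2, with 0 false calls. In the data 3058 probes were called higher and 2143 lower, far more than were changed in the simulation. The adjustment was therefore stricter in the simulation, and its recovery rates are not those of the reported test. Python 3.11.15, pandas 2.3.3, numpy 2.4.6, scipy 1.17.1 and matplotlib 3.10.9 were used otherwise.

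The members and lists were chosen with earlier results of these data known. Genes were named by a rule that took, in each complex, the 3 highest and 3 lowest estimates among genes well above background on all arrays, any member past 2-fold at all 3 time points, core subunits, restricted paralogs, members by name only, and chosen regulators. From the related lists the rule also took genes past 2-fold between treated genotypes at all 3 time points. NDUFAF8, SDHAF4, FOXRED1, LYRM7, NDUFB4, ATP5F1D and ATP5MC2 were named after their values were seen. Quantile, median and no scaling, normexp (offset 50), the mean of probes, filters on dim probes, 1.5- and 3-fold rules, the p53-/- 0 h array as the only baseline, time point as a block, an interaction over 8 arrays and leaving out each treated array were tried. Scaling alternatives for the 24 h dip were added after the data were seen. A further check of the genotype labels is not reported here. Array coordinates were not used, since they are of another genome build.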

Additional observations from a re-analysis of the deposited data

Results flagged for a closer look

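For 7 subunit genes (8.14%, against 22.4% of all genes) every treated array lay on one side of 0 h in p53+/+ cells and on the other side in p53-/- cells. The mean log2 change in p53+/+ minus that in p53-/- cells was 1.104 for SDHA, 0.6527 for NDUFS5, 0.3629 for NDUFB4, −0.5736 for NDUFA6, −0.6854 for SDHB, −0.7611 for CYC1 and −1.003 for SDHD. The interaction of genotype and treatment over the 8 arrays, with time points standing in for replicates, passed for none of them at an adjusted p of 0.05 in limma, which called 0 subunit genes in that fit and 1 at an unadjusted p of 0.05 (1.16%, against 19.2%). These values rest on the array labelled p53+/+ 0 h, whose label was not settled.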

How the results depend on the processing

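With 1 array per condition and time points standing in for replicates, the calls were few and most of them depended on a setting. The cause of the shifts below was not tested. Medians of the 86 subunit genes are log2 values. Under quantile normalization the median change in p53+/+ cells was 0.19 at 12 h and 0.23 at 48 h, and the median difference between treated genotypes 0.14, −0.16 and −0.087 at 12, 24 and 48 h, with 4 genes at least 2-fold lower in p53+/+ cells and 1 called higher. Under median scaling the p53+/+ medians were 0.21, −0.027 and 0.19, those of p53-/- cells 0.19 at 12 h and 0.095 at 48 h, and the difference at 12 h 0.073, with 4 genes past 2-fold below 0 h in p53+/+ cells, 2 lower between genotypes and 1 called higher. With no scaling the medians were 0.068, −0.22 and −0.27 in p53+/+ cells, 0.43, 0.57 and 0.64 in p53-/- cells and −0.11, −0.47 and −0.69 between genotypes. That setting put 3 genes above and 13 below 0 h in p53+/+ cells, 11 above and 0 below in p53-/- cells, and 0 higher and 23 lower between genotypes, and limma called 0 subunit genes higher and 13 lower, and 1365 probes higher and 8028 lower, against 3058 and 2143 as reported. Under normexp 0 genes were past 2-fold above 0 h in p53-/- cells and 1 was higher between genotypes, and limma called 9 higher, 2 lower and 7257 probes higher. With the mean of all probes limma called 1 higher.

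With only probes well above background on all arrays 0 genes were above 0 h in p53-/- cells, 0 were lower between genotypes and 6 were called higher. With no filter 5 were higher between genotypes, 5 were called higher and 9832 probes were. At 1.5-fold the counts were 27 above and 10 below in p53+/+ cells, 11 and 3 in p53-/- cells, and 17 higher and 13 lower between genotypes. At 3-fold 3 were above and 0 below in p53+/+ cells, 0 below in p53-/- cells, and 0 higher and 0 lower between genotypes. Against the p53-/- 0 h array 1 gene was below in p53+/+ cells. With time point as a replicate block limma called 2 higher and 0 lower. In the interaction over 8 arrays it called 0 and 0, and 272 probes higher and 216 lower, and the PPARGC1A value turned to 0.012 (adjusted p = 0.995). Leaving out each treated array gave 0 to 1 higher and 0 to 1 lower subunit genes, and 1194 to 2559 probes higher and 684 to 2009 lower, with the lowest counts without the p53-/- 24 h array. Among 745 values of single genes under the alternatives, 599 kept direction and side of the threshold, 49 lost a call and 34 gained one. Another 62 that were called neither way changed sign. The remaining 1, PPARGC1A in the interaction, lost its call and changed sign to a value near 0. All 9 limma calls of named genes were lost in the interaction (adjusted p 0.20 to 0.995). The 9 include PPARGC1A, which passed the background filter through p53-/- arrays only and gave the 0.995. Without it the highest was 0.61 (LYRM7). No paired analysis by replicate number was possible because each condition has 1 array.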
